A study of Mus musculus with 20 samples.

Results

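The matrix proteases and their inhibitors measured here are the genes named Adam or Mmp followed by a digit, Adamts with any ending, and Timp1, Timp2, Timp3 and Timp4 in the scanner files. They numbered 75 of the 27656 genes on the array: 28 ADAM, 17 ADAMTS, 5 ADAMTS-like, 21 MMP and 4 TIMP genes, and no measured value was used to choose them. RNA came from mouse hippocampal neurons in dissociated culture, which received, on day 21 in culture and for the next 24 h, either vehicle (control), 100 µM AP5, 100 nM NVP-AAM077 (NVP) or 1 µM of the compound spelled Ro25-4891 in the labels (Ro25). AP5 is a competitive antagonist of NMDA-type glutamate receptors, and NVP-AAM077 is an antagonist that prefers receptors holding the Grin2a product. No target is named here for Ro25-4891, since the labels give none and the spelling matches no compound known with certainty. The sources used here give no strain, genotype or animal age. Each group held 5 arrays, 20 in all, and nothing in the labels says that they came from separate cultures or animals, so p-values measure only the spread between these 20 samples, and that spread may be technical.

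Matrix proteases cut the proteins that surround and anchor cells. ADAM proteases sit in the plasma membrane and release the outer parts of other membrane proteins, a step called shedding. ADAMTS proteases are secreted and cut matrix proteoglycans and procollagens, while the ADAMTS-like proteins share their matrix-binding modules but lack the protease domain. Matrix metalloproteinases (MMPs) are secreted or membrane-bound and cut collagens, laminins and other matrix proteins, and tissue inhibitors of metalloproteinases (TIMPs) bind and block the active enzymes. In the hippocampus, the perineuronal matrix and synaptic adhesion proteins are known substrates, and several of these proteases are known for parts in synaptic remodelling.

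On each array, RNA of the culture (Cy5, red) competed with a universal mouse reference RNA (Cy3, green), and every value below is log2(Cy5/Cy3), the log2 ratio, or a difference between group means of it. A ratio of 0 means the same signal as the reference, and since each gene has its own reference level, ratios of different genes do not rank their abundance. Probes were kept where the scanner flagged the red signal as well above background on 5 or more arrays, 28498 of 41174, and they gave 19338 tested genes. Per array, between 58.6 and 69.3% of probes carried that flag. All 16 neuron markers and all 15 astrocyte markers listed were above background on all 20 arrays, so the cultures labelled as neurons held glial transcripts as well. Of 15 microglia and macrophage markers on the array, 11 passed the filter for brightness, and 10 of these were above background on all 20 arrays. Itgam, P2ry12, C1qa and C1qc did not pass the filter. In such bulk RNA, fewer cells of a type and less RNA per cell cannot be told apart. Array AP5 1 stood apart: the SD of its log2 ratios was 1.43, against 1.52 to 1.69 on the other 19, and its mean neuron marker ratio was 3.77. The arrays lay on 7 slides, and no slide held both AP5 and control or both NVP and control arrays.

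Of the 75 genes, 60 were tested: 21 of 28 ADAM, 16 of 17 ADAMTS, 5 of 5 ADAMTS-like, 14 of 21 MMP and 4 of 4 TIMP genes. The gene's probe was well above background on all 20 arrays for 35 of them, made up of 11 ADAM, 9 ADAMTS, 2 ADAMTS-like, 9 MMP and 4 TIMP genes. The 15 genes left out were dim. Adam22, which encodes a neuronal receptor for the secreted protein Lgi1, carried the flag on 0 arrays, as did Adam24, Adam32, Adam4, Adamts19, Mmp12, Mmp20, Mmp25 and Mmp8. One probe of Mmp1a reached that level on 4 arrays and its other probe on 1, and a probe of Adam12 reached it on 3 arrays. Adam7, Mmp13 and Mmp21 reached it on 1 array each, as did each of the 2 probes of Adam29. Among the tested genes, the highest control ratios were those of Mmp17 (4.10 ± 0.10), a membrane-type MMP, Timp4 (3.60 ± 0.26) and Adam11 (3.59 ± 0.14), an ADAM protein without protease activity (mean ± SD, n = 5). The lowest were those of Mmp3 (−4.81 ± 0.59), known as stromelysin, Adamts2 (−4.52 ± 0.17), a procollagen N-proteinase, and Timp1 (−4.17 ± 0.36). These are values of the brightest kept probe of each gene, and the order depends on that choice. Other probes averaged 4.36 and 2.65 for Adam11 in control and −0.09 for Adamts2. A second Adam23 probe averaged 4.12, where the gene value was 1.68. The Mmp3 probe was well above background on only 11 of 20 arrays, 3 of 5 in control, so its ratios lie near the floor of the red channel.

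AP5 against control asked how these genes respond to a day of NMDA receptor blockade. The ADAM protease gene Adam19 and the ADAMTS protease gene Adamts1 fell, and the other 58 tested genes did not pass the test. That is 2 of 60 (3.33%), both lower, beside 6.12% of all 19338 genes past limma's adjusted p of 0.05 (3.59% lower and 2.53% higher). The share of these genes was below the background in the lower and higher directions together, and near it for lower genes alone. Over the 60 genes the median difference was −0.03 and the median size 0.08, against −0.01 and 0.09 over all tested genes.

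Adam19 encodes a membrane-anchored protease known to shed neuregulins. On the control arrays its log2 ratio was 0.65, 0.43, 0.62, 0.89 and 0.69, and on the AP5 arrays −0.01, 0.16, 0.06, −0.03 and −0.16. The 5 AP5 arrays all lay below the 5 control arrays, with no overlap. NVP arrays gave 0.73, 0.54, 0.43, 0.70 and 0.68, and Ro25 arrays 0.68, 0.96, 0.79, 0.39 and 0.45, so both groups overlapped the control range. With AP5, Adam19 fell by 0.65 on the log2 scale, or 1.57-fold (SE 0.10, 95% interval −0.87 to −0.43, limma adjusted p = 0.000469). It differed from control by −0.04 with NVP (interval −0.26 to 0.18, limma adjusted p = 0.999) and by 0.00 with Ro25 (interval −0.22 to 0.21, limma adjusted p = 1). The call held in all 10 fits that left out 1 AP5 or control array (−0.71 to −0.59). With slide as a block the difference was −1.02 (SE 0.23, limma adjusted p = 0.103), and with median centring in place of loess it was −0.60 (SE 0.18, limma adjusted p = 0.203), neither past the threshold.

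Adamts1 encodes a secreted protease that cuts aggrecan, versican and related proteoglycans. Its log2 ratio was −0.52, −1.10, −0.55, −0.56 and −0.72 on control arrays and −1.13, −1.00, −1.20, −1.56 and −1.08 on AP5 arrays. The groups overlapped through control 2 alone, and all 5 AP5 arrays were below the control mean. NVP arrays lay between −0.93 and −0.46 and Ro25 arrays between −1.18 and −0.60, with Ro25 4 the lowest of its group. With AP5, Adamts1 fell by 0.50, or 1.42-fold (SE 0.13, interval −0.78 to −0.23, limma adjusted p = 0.0261). The call was lost in 5 of 10 fits with 1 array left out, those without AP5 3, AP5 4, control 1, control 3 or control 4 (−0.41 to −0.61 over all 10, limma adjusted p up to 0.0837). It was also lost with slide as a block (−0.64, SE 0.38, limma adjusted p = 0.396), with median centring (−0.38, limma adjusted p = 0.889), on the first scan day alone (−0.52, limma adjusted p = 0.0827) and without the 4 arrays numbered 5 (−0.54, limma adjusted p = 0.0747).

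**Figure D1:**
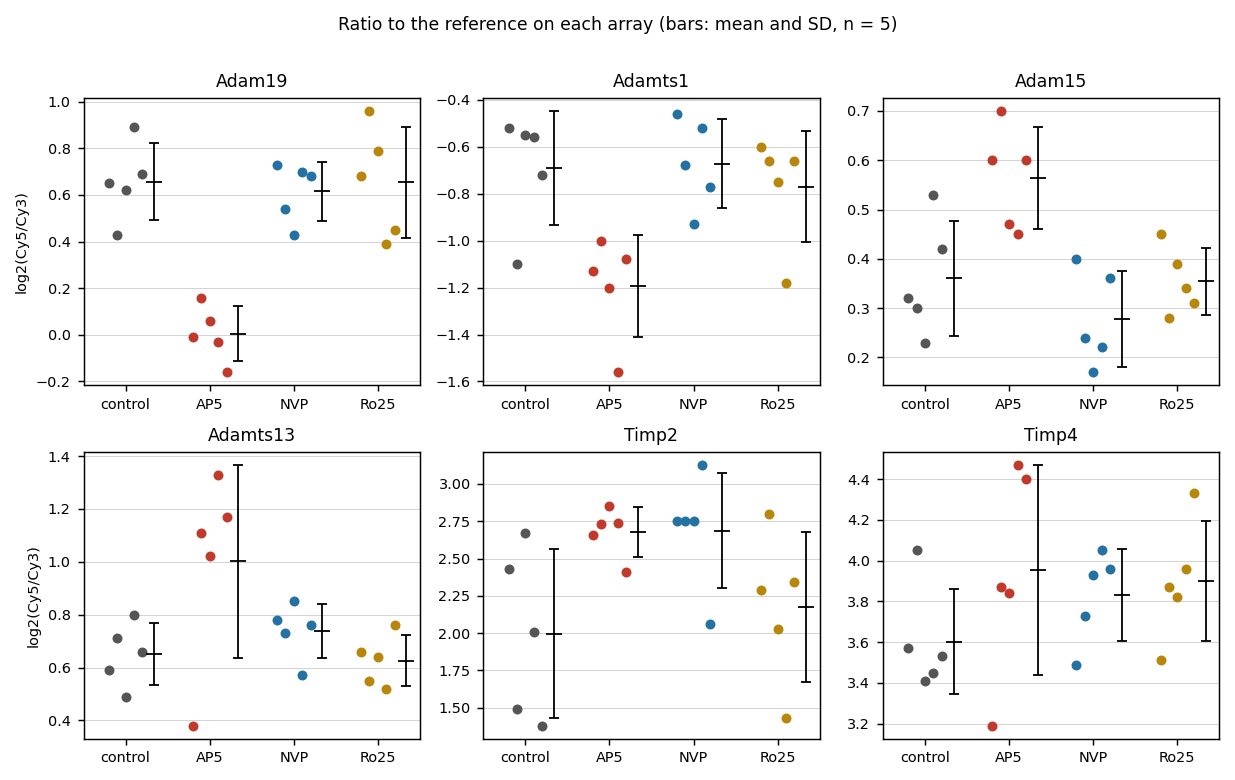
Each point is the log2 ratio of culture RNA to reference RNA on 1 array, by treatment group, for 6 genes, and the bars give the mean and SD (n = 5). The 5 AP5 arrays of Adam19 lie between −0.16 and 0.16, below every array of the other groups, and AP5 1 lies apart from the other AP5 arrays of Adamts13 at 0.38.

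For Adam19 and Adamts1 the reference table gives sequence around the gene start, 250 bases before and 50 bases after it (RefSeq, GRCm38.p6). Windows were found for 45 of the 75 genes, 50 windows in all. They were searched on both strands for the AP-1 site TGACTCA, the cAMP response element TGACGTCA, its shorter form TGACG (which the full element also holds), the Egr site GCGTGGGCG, the TATA box TATAAA and the CArG box, elements known for activity-regulated or inducible genes. The 3 windows shown are those of the 2 genes that fell with AP5 and, for contrast, that of Mmp3, an AP-1-holding member that did not pass the test. Capitals mark AP-1 sites, TGACG and TATAAA on either strand. Adam19 (the second of its 3 listed starts, plus strand, chr11:46055734-46056033), Adamts1 (minus strand, chr16:85803064-85803363) and Mmp3 (plus strand, chr9:7445572-7445871) read, 5′ to 3′ along the gene:
Adam19: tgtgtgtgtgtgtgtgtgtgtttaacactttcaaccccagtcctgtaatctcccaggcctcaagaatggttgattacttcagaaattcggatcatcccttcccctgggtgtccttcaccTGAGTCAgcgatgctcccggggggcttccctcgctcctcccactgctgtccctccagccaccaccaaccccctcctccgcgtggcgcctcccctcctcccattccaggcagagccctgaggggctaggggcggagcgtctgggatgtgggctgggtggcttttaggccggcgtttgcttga
Adamts1: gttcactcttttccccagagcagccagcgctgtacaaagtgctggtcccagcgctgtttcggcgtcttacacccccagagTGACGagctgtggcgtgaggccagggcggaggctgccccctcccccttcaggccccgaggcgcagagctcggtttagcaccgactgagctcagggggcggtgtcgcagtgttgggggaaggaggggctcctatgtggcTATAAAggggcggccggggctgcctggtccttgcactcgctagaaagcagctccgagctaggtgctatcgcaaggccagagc
Mmp3: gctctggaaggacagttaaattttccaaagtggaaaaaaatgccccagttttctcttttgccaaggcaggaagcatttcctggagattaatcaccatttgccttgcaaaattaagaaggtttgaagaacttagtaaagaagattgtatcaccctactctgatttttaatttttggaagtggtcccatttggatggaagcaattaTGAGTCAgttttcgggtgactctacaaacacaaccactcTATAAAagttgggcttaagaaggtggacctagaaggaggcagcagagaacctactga
The Adam19 window holds an AP-1 site (minus strand) at position −131 from the start, and its other 2 windows hold none of the 6 motifs. The Adamts1 window holds TGACG at −170 and TATAAA at −32. The Mmp3 window holds an AP-1 site (minus strand) at −46 and TATAAA at −7. An AP-1 site was found in 9 of the 50 windows (18%), those of Adam19, Adam1b, Adam29 and the 6 MMP genes Mmp10, Mmp12, Mmp13, Mmp1a, Mmp3 and Mmp7, against 5.2% of all 32851 windows. The windows of these 6 MMP genes lie close together, within chr9:7272264-7692139, and each also holds TATAAA. Both shares thus lean on 1 stretch of the genome and do not describe the gene set as a whole. Adam29, Mmp12, Mmp13 and Mmp1a were too dim to be tested. TATAAA was in 26% of the windows of these genes against 13.6% of all, and TGACG in 14% against 20.8%. TGACGTCA, the Egr site and the CArG box were in 0 of the 50 windows, and in 1.79%, 0.612% and 1.63% of all windows. These matches describe the letters only.

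Over the ADAM family, 14 of 21 tested genes, Adam19 included, lay below and 7 above 0 with AP5, with a median of −0.06. NVP and Ro25 against the same control arrays also gave 14 below and 7 above. Of all tested genes 53.5% lay below 0 with AP5. Adam10, the α-secretase that sheds the amyloid precursor protein, Notch and N-cadherin, differed from control by 0.14 (interval −0.10 to 0.38), and Adam17, which releases tumour necrosis factor, by −0.09 (interval −0.27 to 0.08). Adam9, another sheddase, differed by 0.02 (interval −0.12 to 0.15). For these 3 genes the intervals end inside a 1.5-fold difference. Adam23, a neuronal adhesion protein and Lgi1 receptor without protease activity, was at 1.72, 1.44, 1.55, 1.89 and 1.82 on control and 1.20, 1.41, 1.54, 1.25 and 1.59 on AP5 arrays. All 5 AP5 arrays lay below the control mean, but the ranges overlapped, and the difference of −0.29 (SE 0.11) did not pass (limma adjusted p = 0.155). Adam3, known for its part in sperm function, had no overlap between AP5 (−0.04 to 0.29) and control arrays (0.30 to 0.52), and its difference of −0.26 (SE 0.08) did not pass either (limma adjusted p = 0.068). AP5 arrays lay wholly below control arrays for 2 of 60 genes, Adam19 and Adam3, beside 3.91% of all genes, and wholly above for 0 of 60, beside 2.51%.

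Adam15, a membrane protease with an integrin-binding domain, was at 0.32, 0.30, 0.23, 0.53 and 0.42 on control arrays and 0.60, 0.70, 0.47, 0.45 and 0.60 on AP5 arrays. All AP5 arrays were above the control mean, and only control 4 reached into their range. The difference of 0.20 (SE 0.07, interval 0.06 to 0.35) did not pass (limma adjusted p = 0.0913), and it passed without control 4 (0.25, limma adjusted p = 0.0462). It also passed with the scanner's processed signals (0.27, limma adjusted p = 0.028), and it was −0.01 in the authors' value table (limma adjusted p = 0.98).

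In the ADAMTS family 9 of 16 tested genes lay below and 7 above 0 with AP5. The other proteases known to cut aggrecan showed small differences: Adamts4 −0.03 (interval −0.33 to 0.27), Adamts5 −0.01 (interval −0.15 to 0.14) and Adamts9 0.06 (interval −0.17 to 0.29). Adamts15, also known to cut aggrecan, ranged from 0.14 to 0.98 on control and from −0.21 to 0.63 on AP5 arrays, a difference of −0.41 (SE 0.17) that did not pass (limma adjusted p = 0.181). Adamts13 encodes the protease that cuts von Willebrand factor. Its log2 ratio was 0.59, 0.71, 0.49, 0.80 and 0.66 on control arrays and 0.38, 1.11, 1.02, 1.33 and 1.17 on AP5 arrays. The 4 other AP5 arrays were all above the control range, and AP5 1 was below it. The difference of 0.35 (SE 0.12) did not pass in the main fit with all arrays (limma adjusted p = 0.105). With all arrays a rise passed in the authors' value table (0.43, limma adjusted p = 0.00293) and without background subtraction (0.50, limma adjusted p = 0.000924). With the scanner's processed signals it did not pass (1.20, SE 0.45, limma adjusted p = 0.123). Without AP5 1 the difference in the main processing was 0.51 (SE 0.08, limma adjusted p = 0.000403), a rise past the threshold. With slide as a block it was 0.30 (SE 0.23, limma adjusted p = 0.51). Of the 5 ADAMTS-like genes 0 passed by limma, and the 2 with an unadjusted p under 0.05, Adamtsl1 (−0.27, limma adjusted p = 0.212) and Adamtsl3 (0.27, limma adjusted p = 0.235) also differed most.

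Among the MMP genes the differences with AP5 ran from −0.19 to 0.15 over 14 tested. By limma 0 of 14 passed, and 0 had an unadjusted p under 0.05, beside 17.8% of all genes. The gelatinases gave −0.07 for Mmp2 (interval −0.19 to 0.05) and 0.06 for Mmp9 (interval −0.10 to 0.23). Mmp9 was at −2.49, −2.35, −2.32, −2.43 and −2.28 on control arrays and at −1.94, −2.34, −2.39, −2.41 and −2.47 on AP5 arrays, where AP5 1 was the one array above the control range. Among the membrane-type MMPs, Mmp14 differed by −0.08 (interval −0.54 to 0.39), Mmp15 by −0.19 (interval −0.49 to 0.11), Mmp16 by 0.15 (interval −0.16 to 0.46), Mmp17 by 0.01 (interval −0.18 to 0.19) and Mmp24 by −0.04 (interval −0.41 to 0.33). The stromelysin gene Mmp3 differed by 0.04, with an interval of −0.53 to 0.61, wide enough to hold a 1.5-fold rise. Its probe was well above background on 3 of 5 control and 2 of 5 AP5 arrays, so a change could also be hidden near the floor. Mmp7, known as matrilysin, was well above background on 5 of 5 control and 0 of 5 AP5 arrays, yet its ratio differed by −0.03 (limma adjusted p = 0.878). In the red channel alone its mean log2 signal was 6.70 in control, against a floor of 6.32 for the AP5 arrays, or 1.3-fold. That floor is the lowest signal well above background, so both values lie close to background. The ratio to the reference did not show this difference.

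Of the inhibitors 0 of 4 passed by limma in the main fit, and 1 had an unadjusted p under 0.05, beside 17.8% of all genes. Timp2, which blocks MMPs and also takes part in activating pro-MMP2 at the cell surface, had the largest difference of the 60 genes. It was at 2.43, 1.49, 2.67, 2.01 and 1.38 on control arrays and 2.66, 2.73, 2.85, 2.74 and 2.41 on AP5 arrays. AP5 arrays were tightly grouped and control arrays spread widely, with control 1 and control 3 inside the AP5 range. The difference was 0.68 (SE 0.25, interval 0.16 to 1.21, limma adjusted p = 0.13). With slide as a block it turned to −0.77 (SE 0.55, limma adjusted p = 0.48). Timp4 differed by 0.35 (SE 0.20, limma adjusted p = 0.396), Timp1 by −0.21 (SE 0.21, limma adjusted p = 0.706) and Timp3, an inhibitor that binds to the matrix, by −0.04 (SE 0.08, limma adjusted p = 0.898). In the authors' value table Timp4 was higher and passed (0.51, SE 0.16, limma adjusted p = 0.047).

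**Figure D2:**
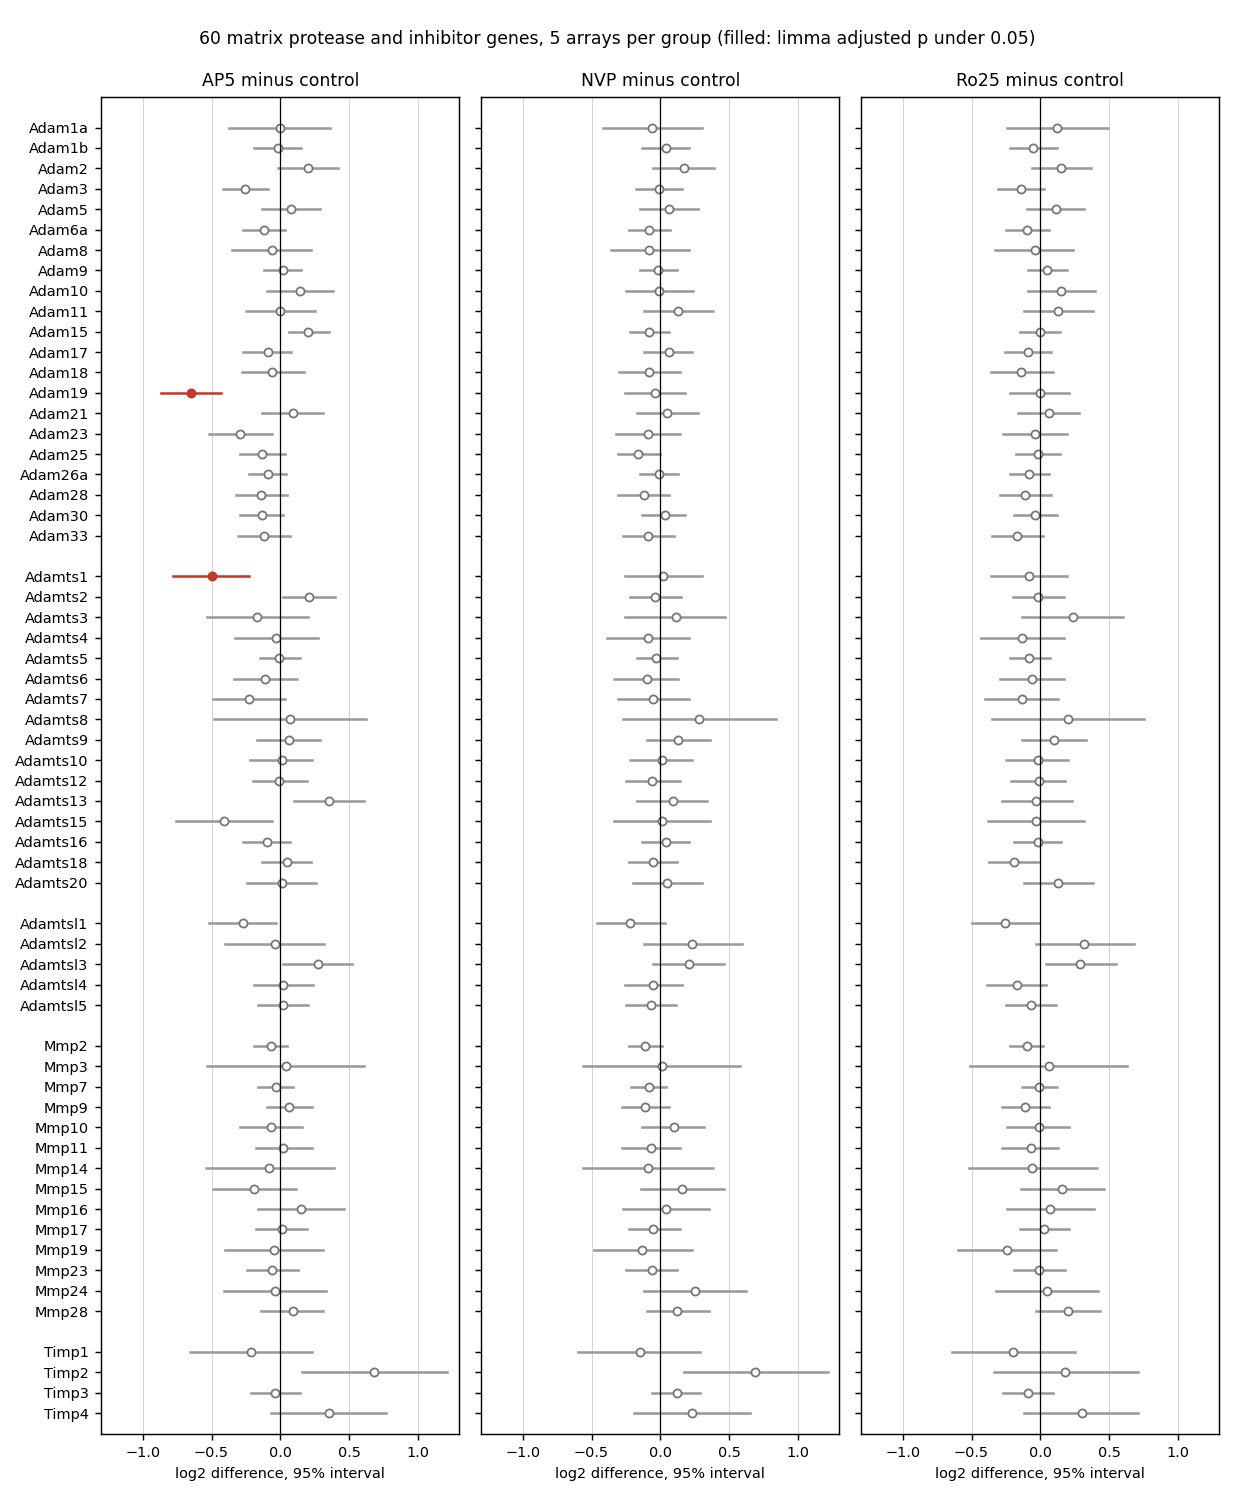
For each of the 60 tested genes the point is the difference in mean log2 ratio between an antagonist and control (5 arrays each) and the line its 95% interval, with filled points past limma's adjusted p of 0.05. Filled points occur for Adam19 (−0.65) and Adamts1 (−0.50) with AP5 and for no gene with NVP or Ro25, and Timp2 has wide intervals in each panel.

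The intervals bound the changes only for the main fit and for the probe that gave each gene value. With AP5 the 95% interval excluded a 1.5-fold change for 51 of 60 genes, against 17276 of all 19338 genes, and a 2-fold change for 59 of 60, with Timp2 the exception. Other processing went past such bounds. Adamts18 differed by 0.05 in the main fit and by 1.14 with the scanner's processed signals (limma adjusted p = 0.0132). Only 35 of the 60 were above background on all 20 arrays, and in dim genes a change could be hidden near the floor. Other processing moved the AP5 calls: 5 of 60 genes passed (2 lower, 3 higher) with the scanner's own processed signals, beside 7.16% of all genes. Adam19 and Adamts1 were lower, and Adam15, Adamts18 and Adamts2 higher. The authors' value table gave 5 of 51 (2 lower, 3 higher), beside 9.07%. Adam19 and Adamts1 were again lower, and Adamts13, Adamts2 and Timp4 higher. Without background subtraction 4 of 60 passed (3 lower, 1 higher), beside 8.63%. Those were Adam19, Adam3 and Adamts1, lower, and Adamts13, higher. With slide as a block and with median centring 0 of 60 passed by limma, where 41 and 165 of all genes passed.

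NVP against control gave no call among these genes: 0 of 60 passed limma's test, beside 0% of all genes. At an unadjusted p under 0.05 there was 1 of 60, beside 5.87% of all genes, and it was Timp2. Timp2 was at 2.75, 2.75, 2.75, 3.13 and 2.06 on NVP arrays. All of these were above the control mean, although NVP 5 was below control 1 and control 3. The difference was 0.69 (SE 0.25, interval 0.17 to 1.22, limma adjusted p = 0.698), and −0.29 (SE 0.54) with slide as a block. The next lowest p-values belonged to Adam25 (−0.16, limma adjusted p = 0.86), Mmp2 (−0.11, limma adjusted p = 0.901), Adamtsl1 (−0.22, limma adjusted p = 0.914) and Adamtsl3 (0.21, limma adjusted p = 0.942). The interval excluded a 1.5-fold change for 54 of 60 genes, and a 2-fold change for 59.

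Ro25 against control likewise gave 0 of 60 past limma's test, beside 0.0155% of all genes (3, all lower). Unadjusted p-values below 0.05 were found for 3 of 60, beside 4.34% of all genes: Adamtsl3 (0.29), Adamts18 (−0.19) and Adamtsl1 (−0.26), each with a limma adjusted p of 1. Adamtsl3, a matrix protein related to ADAMTS proteases, ran from −1.80 to −1.38 on control and from −1.48 to −0.92 on Ro25 arrays. The interval excluded a 1.5-fold change for 52 of 60 genes and a 2-fold change for all 60. The 3 comparisons with control share the 5 control arrays, so their values are not independent of each other.

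The antagonists were then set against each other, which tests whether the AP5 differences exceed those of the other compounds; their doses differ, and no dose series was run. AP5 against NVP gave 3 of 60 genes past limma's test, beside 5.78% of all genes (3.09% lower and 2.69% higher). Adam19 was lower with AP5 (−0.61, SE 0.10, interval −0.83 to −0.39, limma adjusted p = 0.00101) and Adamts1 was lower (−0.52, SE 0.13, interval −0.80 to −0.24, limma adjusted p = 0.0221). Adam15 was higher (0.28, SE 0.07, interval 0.14 to 0.43, limma adjusted p = 0.0151), with NVP arrays at 0.40, 0.24, 0.17, 0.22 and 0.36. AP5 and NVP arrays did not overlap for any of these 3 genes. AP5 arrays lay wholly below NVP arrays for 2 of 60 genes, beside 3.74% of all genes, and wholly above for 1, beside 3.21%. The call of Adamts1 against NVP was lost without AP5 4 (−0.43, limma adjusted p = 0.0679), NVP 1 (−0.47, limma adjusted p = 0.0675) or NVP 4 (−0.48, limma adjusted p = 0.064). AP5 against Ro25 gave 1 of 60, beside 3.1% of all genes: Adam19 at −0.65 (SE 0.10, interval −0.86 to −0.43, limma adjusted p = 0.000703). Adamts1 differed between AP5 and Ro25 by −0.42 (interval −0.70 to −0.14), which did not pass (limma adjusted p = 0.0999), and passed without Ro25 4 (−0.52, limma adjusted p = 0.0275). AP5 arrays lay wholly below Ro25 arrays for Adam19 and Mmp15 (2 of 60, beside 2.6% of all genes) and wholly above them for Adam15 (1 of 60, beside 1.34%), where Mmp15 (−0.35, limma adjusted p = 0.255) and Adam15 (0.21, limma adjusted p = 0.119) did not pass. NVP against Ro25 gave 0 of 60 past limma's test, beside 0% of all genes, and 1 of 60 at an unadjusted p under 0.05, beside 5.91%, which was Timp3 (0.21, limma adjusted p = 0.811).

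Slides allow these antagonist comparisons to be read within a slide. On slide 2, Adam19 was −0.16 on AP5 5 and averaged 0.56 on 3 NVP arrays, and on slide 6 it was −0.01 on AP5 1 and 0.96 on Ro25 2. With slide as a block Adam19 stayed past the threshold against NVP (−0.76, SE 0.14, limma adjusted p = 0.0324) and against Ro25 (−0.90, SE 0.16, limma adjusted p = 0.0188). In that fit Adam11 (−0.71, limma adjusted p = 0.0302) and Mmp15 (−0.83, limma adjusted p = 0.034) were also lower with AP5 than with Ro25. That made 3 of 60 genes against Ro25, Adam19 included, beside 1.06% of all genes. AP5 1 and Ro25 2 on slide 6 are the one direct AP5 and Ro25 pair in that fit. Slides 1 and 7 held AP5 arrays alone, so its AP5 side rests on AP5 1 and AP5 5. AP5 1 was the lowest AP5 array for both Adam11 and Mmp15, and for Mmp15 it read 1.73, against 2.47 to 2.73 on the others. Without the block the differences from Ro25 were −0.13 for Adam11 and −0.35 for Mmp15, not past the threshold. For Adamts1 the slide 2 difference between AP5 5 and NVP was −0.37 and the slide 6 difference between AP5 1 and Ro25 2 was −0.47, and with the block neither comparison passed (limma adjusted p of 0.431 and 0.536). For Adam15 the slide 2 difference was 0.39, and the blocked value against NVP was 0.37 (SE 0.10, limma adjusted p = 0.136).

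Several genes have more than 1 probe, and each gene value above is that of its brightest kept probe. Tested one by one, 4 of 88 kept probes of these genes (4.55%) passed with AP5 against control, beside 5.06% of all 28498 kept probes. They were those of the Adam19 and Adamts1 values above, a second Adam19 probe and 1 of 4 Adamts2 probes. With AP5 against NVP 5 of 88 passed, these 4 and the probe of the Adam15 value, beside 4.85% of all probes. With AP5 against Ro25 3 of 88 passed, the 2 of Adam19 and that of Adamts2, beside 2.6%. The second Adam19 probe fell by 0.60 (SE 0.13, limma adjusted p = 0.00985), and the remaining one differed by −0.30 (SE 0.13, limma adjusted p = 0.213). The other Adamts1 probe differed by −0.29 (SE 0.09, limma adjusted p = 0.0664), and the other Adam15 probe by 0.00 (SE 0.09, limma adjusted p = 0.997), so the Adam15 difference rests on 1 of 2 probes.

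The Adamts2 probes disagreed. The brightest, which gave the gene value, ran from −4.78 to −4.36 on control and from −4.48 to −4.11 on AP5 arrays, a difference of 0.21 (SE 0.09, limma adjusted p = 0.24). The probe that passed is annotated to the transcript AK220464, which the scanner files name Adamts2, at chr11:50754733-50754792 of build mm7. That place lies between the gene's other probes, and the sources used here do not say whether it is exonic. It was at −0.11, −0.29, 0.25, −0.19 and −0.09 on control arrays and at 0.99, 1.29, 1.33, 1.10 and 0.68 on AP5 arrays. All AP5 arrays were above all 15 other arrays, since NVP arrays ran from −0.15 to 0.19 and Ro25 arrays from −0.18 to 0.29. The probe was 2.24-fold higher with AP5 (log2 1.16, SE 0.12, interval 0.90 to 1.42, limma adjusted p over probes = 5.67e-06), and 1.10 to 1.26 with 1 array left out. It was 1.06 higher than with NVP (limma adjusted p = 2.19e-05) and 1.06 higher than with Ro25 (limma adjusted p = 2.57e-05). With slide as a block the difference from control was 0.43 (SE 0.19, limma adjusted p = 0.287). The third Adamts2 probe differed by −0.17 (SE 0.09, limma adjusted p = 0.338), and the fourth was above background on 0 of 20 arrays. As a gene, Adamts2 passed with AP5 in other settings. It was 0.33 higher with the scanner's processed signals (limma adjusted p = 0.0369) and 0.40 as the mean of all kept probes (limma adjusted p = 0.000149). In the authors' value table it was 1.28 higher (limma adjusted p = 8.09e-07).

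**Figure D3:**
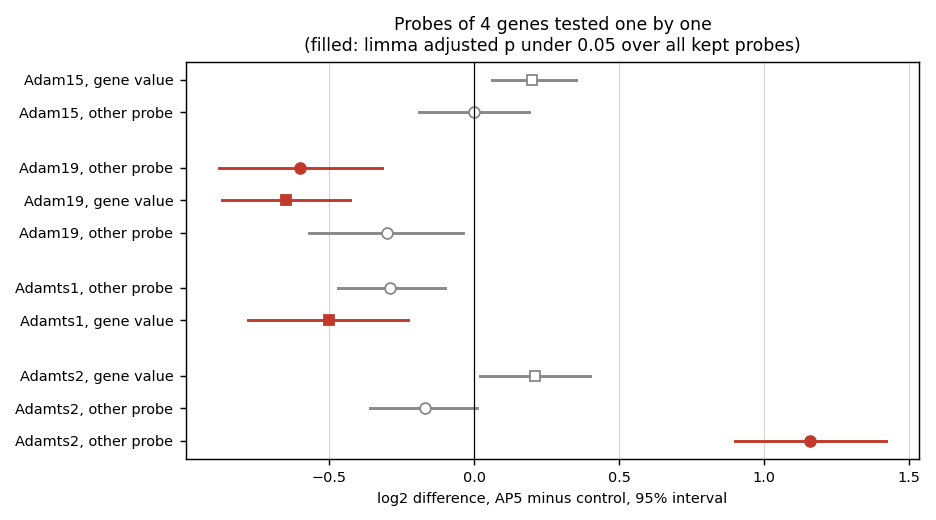
Points give the difference in mean log2 ratio between AP5 and control for each kept probe of Adam15, Adam19, Adamts1 and Adamts2, with 95% intervals (5 arrays per group), squares for the probe that gave the gene value and filled points past the adjusted p of 0.05. The probes of Adam19 all lie below 0, whereas those of Adamts2 lie at 0.21, −0.17 and 1.16.

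Some of these genes varied more between arrays of a group than between groups. The median SD within groups was 0.18 over the 60 genes and 0.15 over all tested genes, and it was highest for Mmp3 (0.47), Adamts8 (0.46), Timp2 (0.43), Mmp14 (0.39) and Timp1 (0.37). For Timp1, a secreted inhibitor that reactive glia are known to express, the array numbered 5 in its title was the highest of its group in all 4 groups on the probe that gave the gene value. On that probe it read −3.56 in control, −3.72 with AP5, −3.77 with NVP and −3.79 with Ro25, where the 16 other arrays ran from −4.75 to −4.21. Mmp14, the membrane-type MMP that activates pro-MMP2, showed the same order, with −0.99, −1.18, −1.04 and −1.00 against −2.12 to −1.51 on the other arrays. Mmp3 read −3.76, −4.24, −4.19 and −3.90 on those arrays, against −5.15 to −4.53. The arrays numbered 5 did not overlap with the others on the probes that gave these 3 gene values. Other probes of Timp1 did not keep that order: on one, AP5 5 read −3.29 and AP5 1 −2.92, and Ro25 5 −3.15 and Ro25 3 −3.10, and on another, Ro25 5 read −2.29 and Ro25 4 −2.25. On the other Mmp14 probe the array numbered 5 was again the highest of each group, but AP5 5 (−1.40) lay below NVP 3 (−1.24).

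Timp3, Mmp19 and Adamts4 were also highest on the array numbered 5 in all 4 groups, so that 6 of 60 gene values (10%) showed this order beside 5.11% of all tested genes. Adam1a, Adam8, Adamts7 and Adamts10 were lowest there in all 4 groups, 4 of 60 (6.67%) beside 3.89% of all. For the numbers 1 to 4, no gene among the 60 was highest or lowest in all 4 groups. Over all tested genes that share was also small, from 0.0259 to 0.119% per number and direction. The 4 arrays lay on slides 2, 3, 4 and 5. The number was picked out after its values were seen, and the sources used here do not say what these arrays share beyond it. Without them the AP5 difference was −0.54 for Adamts1, as above, and the Adam19 call remained.

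**Figure D4:**
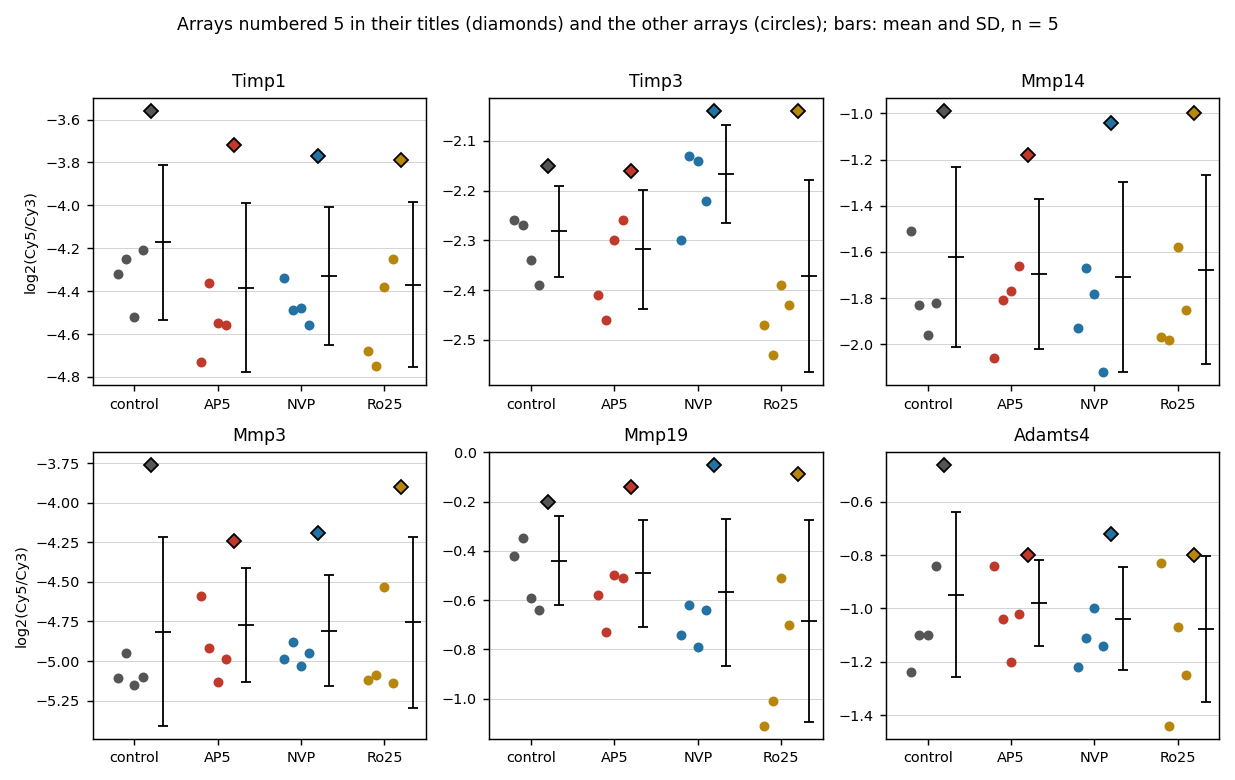
Log2 ratios per array are drawn for the 6 genes that were highest on the array numbered 5 in every group, with diamonds for those arrays, circles for the others and bars for mean and SD (n = 5). For Timp1 the diamonds lie between −3.79 and −3.56 and the circles at or below −4.21.

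Genes that act around these proteases were read from 4 lists. In the plasminogen activator system, whose proteases activate several pro-MMPs, S100a10, a plasminogen receptor subunit, fell with AP5 from a mean of −2.27 in control to −3.43 (−1.16, SE 0.28, limma adjusted p = 0.0143). It differed from control by −0.30 with NVP (limma adjusted p = 0.999) and by −0.59 with Ro25 (limma adjusted p = 1). Plat, the tissue plasminogen activator, differed by −0.14 with AP5 (limma adjusted p = 0.346), and the neuronal inhibitor Serpini1 by −0.08 (limma adjusted p = 0.857).

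Among other regulators of matrix proteases, such as the membrane inhibitor Reck (0.19, limma adjusted p = 0.273) and the proprotein convertase Furin (−0.23, limma adjusted p = 0.131), 0 of 26 passed with any antagonist by limma, and 6 had an unadjusted p under 0.05 with AP5, beside 17.8% of all genes, and 0 with NVP or Ro25, beside 5.87% and 4.34%. Of 22 brain matrix substrates 1 rose with AP5 and 0 fell, beside 2.53% and 3.59% of all genes, with a list median of 0.01. The 1 that rose was Hapln4, a link protein of perineuronal nets (0.36, SE 0.10, limma adjusted p = 0.0312). Acan, the aggrecan gene, differed by 0.45 (SE 0.16, limma adjusted p = 0.126). Of 34 membrane proteins known to be shed, 1 rose and 1 fell with AP5, again beside 2.53% and 3.59% of all genes. Prnp, the prion protein gene, rose (0.53, SE 0.11, limma adjusted p = 0.00655), and Efna5, an ephrin, fell (−0.47, SE 0.13, limma adjusted p = 0.0304). The counts of both lists are small and close to those shares. With NVP and with Ro25, 0 genes of these 2 lists passed by limma. At an unadjusted p under 0.05 there were 2 and 1 of 22 matrix substrates and 2 and 1 of 34 shed proteins. Over all genes that share was 5.87% with NVP and 4.34% with Ro25.

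Some markers of other cell types also changed with AP5. Among neural markers, 0 of 15 astrocyte and 0 of 16 neuron markers passed by limma, with 0 and 1 at an unadjusted p under 0.05, beside 17.8% of all genes. The mean astrocyte marker ratio per array ran from 2.79 to 4.09 with AP5 and from 3.22 to 3.80 in control, and the mean neuron marker ratio per array ran from 3.77 to 4.54 with AP5 and from 4.29 to 4.61 in control. Of 11 microglia and macrophage markers 3 passed, beside 6.12% of all genes: Csf1r rose (0.46, limma adjusted p = 0.00279), while Fcer1g (−0.38, limma adjusted p = 0.0391) and Fcgr3 (−0.34, limma adjusted p = 0.0487) fell, and the list mean per array ran from −2.18 to −2.07 with AP5 and from −2.15 to −1.92 in control. The endothelial receptor gene Kdr rose (0.73, limma adjusted p = 0.0247), 1 of 9 endothelial and mural markers, beside 2.53% of all genes higher. That list ran from −0.28 to 0.73 with a median of 0.03, so it did not rise as a whole. Col1a2 fell (−0.25, limma adjusted p = 0.0495), 1 of 13 fibroblast and meningeal markers, beside 3.59% of all genes lower. Their differences ran from −0.25 to 0.64 with a median of −0.05, so this list did not fall as a whole. Of 11 oligodendrocyte lineage markers 0 passed by limma, with 2 at an unadjusted p under 0.05, beside 17.8% of all genes. The part of these shifts in the values of Adam19 and Adamts1 was not tested.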

How the data were processed

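The authors deposited the scanner output of 20 Agilent arrays with 2 colours and no dye swap. It gives each spot an intensity in red and green, linear in brightness, and per the file headers Feature Extraction 10.7.3.1 wrote it (11.0 in the submitters' processing notes). Per the file headers it also gives a log10 ratio of red over green processed signals, after the scanner software's background subtraction and dye normalization. Each array has 45018 spots, of which 43379 are not controls. The authors also deposited a value table of 20674 probes as log2 ratios. Set against the scanner ratio its columns had correlations between 0.987 and 0.991 with positive slopes, which settles scale and direction. Column medians were 0.0302 to 0.0626, and its normalization and centring stay unknown.

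Spot signals were background-corrected by normexp (offset 50) and normalized by loess within each array, with control and outlier spots at weight 0. Each gene took its brightest kept probe. Probes were named from a RefSeq table (GRCm38.p6) through accession (22951), symbol (6659), synonym (3109) or gene number (294), and 8161 kept the name in the file. One limma 3.58.1 fit (R 4.3.3) over all 20 arrays gave 6 two-sided comparisons, with Benjamini-Hochberg adjustment over 19338 genes at 0.05. Where a probe was dim on a whole group, the red-channel bound divides the bright group's mean by a floor per dim array, namely the lowest signal well above background or the probe's own if higher, after loess and Aquantile scaling. The fit was tested on simulated data. The number of arrays limits the precision.

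The genes, lists and tests were chosen with earlier results of these data known. Named genes were those past the threshold, those of lowest p in each comparison, a set fixed by role, the highest and lowest control ratios, genes above background in some groups alone, and called genes of each list. Other genes and probes named with values were chosen after their values were seen. Alternatives changed the background correction, normalization, filter and probe rule, used the value table, blocked on slide or title number, kept the first scan day, or left out arrays. Samples were grouped by their titles. Some items are not reported here.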

Additional observations from a re-analysis of the deposited data

Results flagged for a closer look

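Of 128 groups of 5 arrays examined over the named genes, 9 held an array far from the 4 others, where chance alone flags about 1 in 20 (6.4). Of these, 3 lay on AP5 1: Adamtsl2 at 0.57 (the others 1.37 to 1.66), Mmp15 at 1.73 (2.47 to 2.73) and Mmp9 at −1.94 (−2.47 to −2.34). Another 3 lay on arrays numbered 5: Mmp3 on control 5 at −3.76 (−5.15 to −4.95) and on NVP 5 at −4.19 (−5.03 to −4.88), and Timp1 on NVP 5 at −3.77 (−4.56 to −4.34). The rest were Adamts1 on Ro25 4 at −1.18 (−0.75 to −0.60), Adamtsl1 on AP5 3 at 0.73 (0.05 to 0.22) and Timp4 on control 2 at 4.05 (3.41 to 3.57). Without AP5 3, the difference of Adamtsl1 between AP5 and control was −0.39 (limma adjusted p = 0.0249), past the threshold that it misses with all arrays. The Adamtsl1 probe was dim, well above background on 5 of 5 control but only 2 of 5 AP5 arrays.

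Differences between antagonists passed the test for Adam15 (0.28), Adam19 (−0.61) and Adamts1 (−0.52) in AP5 against NVP, and for Adam19 (−0.65) in AP5 against Ro25.

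Probes outside the gene values gave a signal for Adam19 (−0.60) and for the AK220464 probe of Adamts2 (1.16) with AP5 against control.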

How the results depend on the processing

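Each count below is out of 60 genes, or 51 in the value table, and brackets give the share of all genes called in that setting. Against control, 2 genes passed with AP5 (6.12%). The count was 5 with the scanner's processed signals (7.16%), 5 in the authors' value table (9.07%) and 4 without background subtraction (8.63%). It was 0 with median centring (0.853%), 0 with slide as a fixed block (0.212%), and 1 without the 4 arrays numbered 5 (4.25%). Against NVP it was 3 (5.78%), then 0 with median centring (0.626%) and 1 with slide as a fixed block (0.558%). It was 4 without background subtraction (7.39%), in the value table (7.49%), without the second scan day (5.78%) and with each probe tested on its own (6.25%). Against Ro25 it was 1 (3.1%), then 2 with processed signals (3.21%), 3 without background subtraction (4.23%) and 0 with median centring (0.44%). It was 3 in the value table (3.89%), 3 with the mean of all kept probes (2.84%) and 3 with slide as a fixed block (1.06%). It was 2 on the first scan day alone (1.55%), 2 without the 2 arrays of the second scan day (2.33%) and 2 with each probe tested on its own (3.31%). The last 2 settings and the one without arrays numbered 5 were chosen after seeing the data. For NVP against control, Ro25 against control and NVP against Ro25 the count was 0 in every setting run. With 1 array left out, the counts ran from 1 to 3 (AP5 against control), 2 to 4 (AP5 against NVP), 1 to 2 (AP5 against Ro25) and 0 to 0 in the other comparisons. The shares of all genes in the 3 AP5 comparisons ran from 4.29 to 6.29%, 3.87 to 6.93% and 2.36 to 2.95%. The difference of Adam15 between AP5 and NVP turned from 0.28 to −0.01 in the value table, which holds the gene's other probe. Asking for background on all 20 arrays left 35 genes in place of 60, and asking for 1 array gave 66.

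Over all genes, the AP5 calls against control, NVP and Ro25 numbered 1183, 1118 and 599. They were 165, 121 and 85 with median centring, 41, 108 and 205 with slide as a fixed block, and the last pair were 634 and 300 on the first scan day. The causes of these shifts were not tested. No slide joins AP5 to control, so blocked AP5 values run through the NVP and Ro25 arrays and rest on AP5 1, AP5 5 and control 3.

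The title numbers were not taken to pair samples. The correlation of same-numbered deviations between AP5 and control was −0.134, −0.371, 0.0626, −0.297 and 0.568 for numbers 1 to 5, so that not every array correlated best with its own number. With the replicate number as a block the counts were 2, 3 and 1 for AP5 against control, NVP and Ro25, beside 6.4, 6.1 and 3.4% of all genes. They were 0 in the others, and 1238 genes in all were called for AP5 against control.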
